A study of Drosophila melanogaster with 9 samples.

Results

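The genes described here encode the protein components of the cytosolic ribosome of Drosophila melanogaster, with relatives that carry similar symbols. They were chosen by FlyBase symbol: every gene whose symbol starts with RpL, RpS or RpLP followed by a digit, which keeps mitochondrial ribosomal proteins out. RpLP0-like and RpL24-like, which are related to assembly factors as described below, are counted as members. The rule found 92 genes, 54 of the large and 38 of the small subunit, and 87 of them had a row among the 17559 genes of the count files. RpL19, RpL27A, RpL31, RpS10b and RpS12 had none under their present FlyBase identifier and were not analysed here. After a filter on low counts 81 members (47 large, 34 small) were tested among 9207 genes. The other 6 with a row, RpL10Aa, RpL22-like, RpL37-2, RpL7-like, RpS28-like and RpS28a, had between 0 and 8 reads in any group of 3 libraries.

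Poly(A) RNA was sequenced from S2R+ cells, a line derived from fly embryos that resembles haemocytes (blood cells), as 9 libraries in 3 groups of 3. One group expressed Ultrabithorax with the homeodomain change N51A (Ubx-N51A), another the unaltered form of this Hox protein (Ubx-WT), and the control group GFP with a nuclear localisation signal; all were driven by Gal4-UAS with an actin promoter. The altered residue lies where the homeodomain touches DNA. The title of the series concerns RNA binding and splicing by Ubx, and the gene counts used here address amounts of transcripts. The labels are at odds on the tag of Ubx, myc in the protocols and GFP in the sample characteristics, and this was not settled. Per the labels, each group had 4 independent replicates, of which 3 were retained on the basis of principal components; whether they were separate cultures or days is not said, and p-values then measure only the spread between these libraries. The spread between the kept libraries may be smaller than among all 4, which would make p-values too low. Replicate numbers here are those of the sample titles; the file names number the kept libraries 1, 3 and 4 in both Ubx groups and 1, 2 and 4 in the GFP group. The names of the count files also hold a word on sorting, not the same in each group; if it refers to the cells, it cannot be told apart from the expressed protein.

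The ribosome translates messenger RNA. Its small subunit reads the codons, its large subunit joins amino acids, and each ribosomal protein is present in a fixed proportion, so cells make these proteins in matched amounts. In flies the genes share a pyrimidine-rich initiator called the TCT motif and give short, highly abundant messages whose translation answers to TOR signalling. Loss of 1 gene copy of most of them causes the Minute phenotype of slow development and short bristles. Several ribosomal proteins are encoded by a pair of genes, of which one is often confined to the germline.

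The Ubx gene itself checked the labels: it had 51719, 76367 and 145254 reads in the Ubx-N51A libraries and 71888, 69408 and 102681 in the Ubx-WT libraries, against 14, 8 and 89 in the GFP libraries. Libraries held 30967554 to 66828787 reads in genes. Levels are reads per 1000000 reads in genes (CPM), with TMM factors (trimmed mean of M-values) as the scale between libraries; a change was called when the edgeR quasi-likelihood test, in a fit over all 9 libraries, gave a Benjamini-Hochberg adjusted p under 0.05 over all genes tested. Haemocyte markers were present in part: their summed level was 1407 to 1440 CPM with Ubx-N51A, 1370 to 1432 CPM with Ubx-WT and 1361 to 1488 CPM with GFP, carried mostly by Pxn, ush, crq and srp. Over the 9 libraries Col4a1 had 69 to 96.7 CPM and vkg 31.6 to 46.4 CPM. Hml had 6.38 to 9.65 CPM, eater 1.05 to 2.27 CPM and He 0.356 to 0.936 CPM, and NimC1 was at or under 0.0875 CPM throughout. Of the lists of other cell types, glia markers summed to 253 to 265 CPM with Ubx-N51A, 250.5 to 267 CPM with Ubx-WT and 271 to 297 CPM with GFP, nearly all moody and nrv2, with repo at or under 0.156 CPM. Muscle markers summed to 81.0 to 89.3, 88.4 to 92.6 and 91.1 to 96.9 CPM in the same groups, nearly all Mef2 and sls, with Mhc and Act88F at or under 0.161 CPM. Neuron markers summed to 52.6 to 56.6, 54.2 to 63.9 and 45.6 to 53.7 CPM, mostly elav, and germline markers to 253 to 258, 246 to 256 and 252 to 255 CPM, mostly aub. Fat body markers stayed under 0.5 CPM in sum, and among these lists sls was called lower in both Ubx groups against GFP and Fbp1 (at or under 0.379 CPM) higher with Ubx-WT against both other groups. The mitochondrial genome took 4.11% to 5.87% of the reads in genes with Ubx-N51A, 2.77% to 4.91% with Ubx-WT and 1.92% to 3.43% with GFP. The reads that it takes lower the CPM of all other genes before TMM scaling.

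Ribosomal protein genes were among the most abundant messages of these cells. Per length, measured as CPM per kb of exon (all exons of a gene merged), 69 of the 100 highest tested genes and 76 of the 200 highest in the GFP libraries were members. The median level of the 81 tested members was 1772 CPM per kb with Ubx-N51A, 1597.5 with Ubx-WT and 1784.5 with GFP, where the median of all tested genes was 14.3 CPM per kb. RpL23 (FlyBase FBgn0010078, chr2R:22854383-22855694, plus strand of the BDGP6 assembly, as for all coordinates below), a large subunit protein at the face that meets the small subunit, was the highest with 5661 ± 197 CPM per kb with Ubx-N51A, 5130.0 ± 407 with Ubx-WT and 5587 ± 254 with GFP (SD, n = 3 each). RpS3, a small subunit protein at the mRNA entry, followed with 4882 ± 54.4, 4367 ± 408 and 4908 ± 281 CPM per kb in the same groups. RpL10, which completes the large subunit late in its assembly, came next with 4752 ± 344, 4239 ± 213 and 4417 ± 203 CPM per kb. Mean ± SD overlapped between RpL23 and RpS3 with Ubx-WT and between RpS3 and RpL10 with Ubx-N51A and Ubx-WT, so the order there was not resolved.

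The middle range of the members was narrow beside their full range. With GFP the large subunit genes ran from 154 to 5587 CPM per kb. Of the tested members, 77 had at least 100 CPM in the GFP libraries, and among these the upper quartile was 1.96 times the lower with Ubx-N51A, 1.90 times with Ubx-WT and 1.87 times with GFP, in CPM per kb. The 47 large subunit genes had a median of 1804 CPM per kb with Ubx-N51A, 1607 with Ubx-WT and 1784.5 with GFP. The 34 small subunit genes had 1673 with Ubx-N51A, 1574 with Ubx-WT and 1760 with GFP, with the germline-type copies included. The lowest members that passed the filter were RpS19b, RpS5b and RpS10a, with 0.889 ± 0.336 CPM per kb for RpS10a with Ubx-N51A, 0.875 ± 0.145 with Ubx-WT and 1.08 ± 0.196 with GFP. Its partner RpS10b was not analysed here.

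The scale matters for single genes, because untranslated exons differ in length. RpL5, which carries the 5S ribosomal RNA, has merged exons of 3835 bases around a coding sequence of 897 bases, and its rank among members in the GFP libraries was 50 per kb of exon and 9 per kb of coding sequence. RpL41, whose coding sequence of 75 bases is the shortest, ranked 8 and 1 on the same scales. Ranks of such genes are therefore tied to the annotation.

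**Figure D1:**
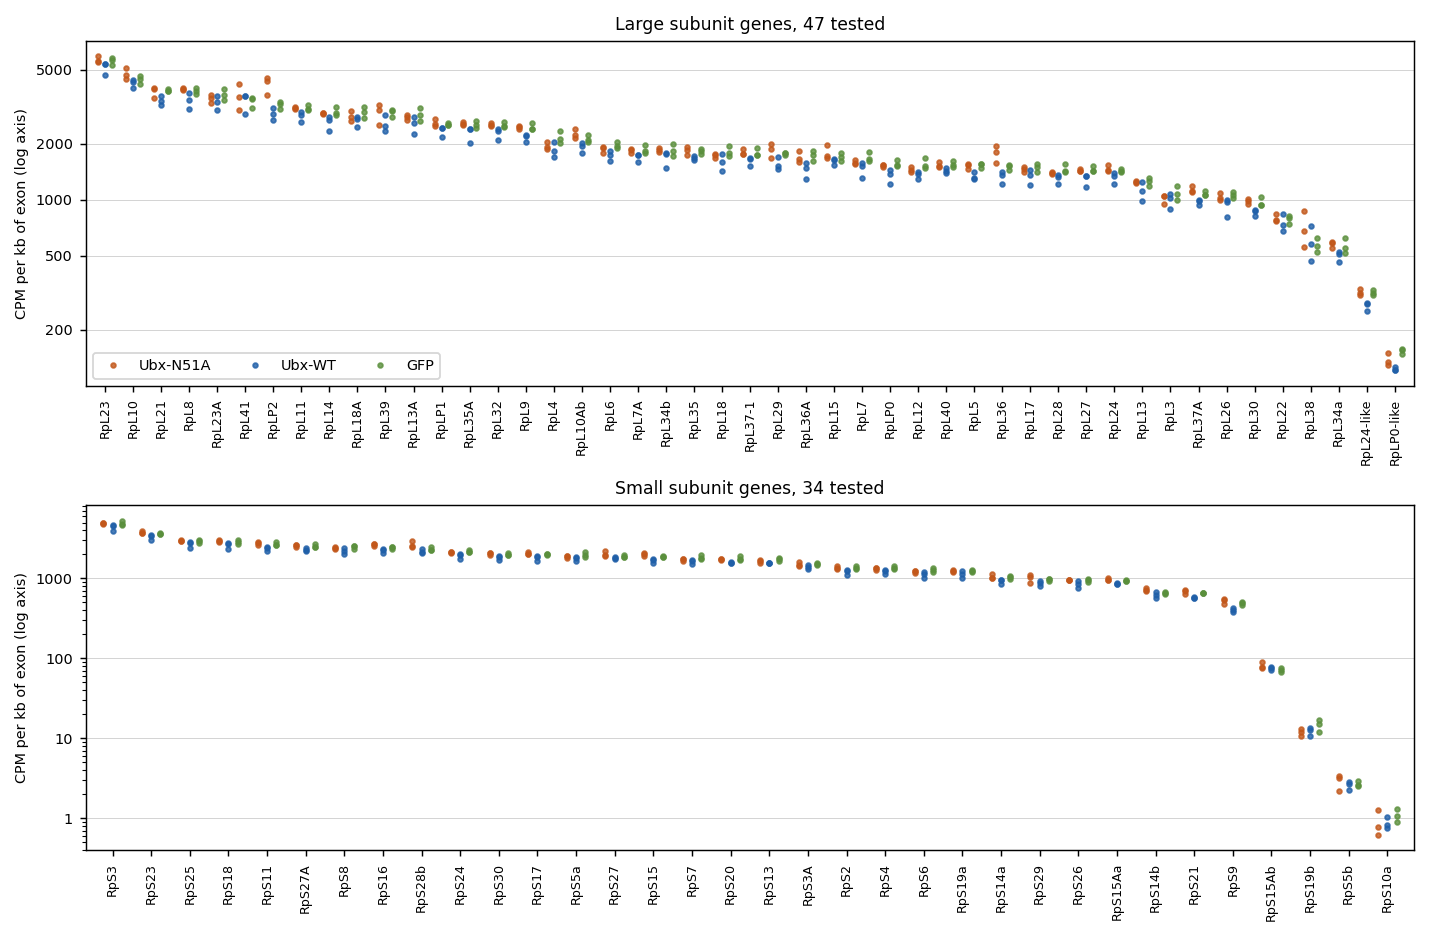
Level of each tested member in each library, in CPM per kb of exon on a log axis, for 47 large subunit genes (top) and 34 small subunit genes (bottom), ordered by the GFP mean; every point is a library. Levels run from RpL23 at 5661 CPM per kb with Ubx-N51A down to RpS10a near 1 CPM per kb, and the 4 lowest genes are small subunit genes.

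The members together took a smaller share of the reads with Ubx-WT than in either other group. They held 14.1%, 14.6% and 14.1% of the reads in genes in the Ubx-N51A libraries, 13.6%, 12.4% and 13.7% in the Ubx-WT libraries and 14.7%, 14.0% and 13.9% in the GFP libraries. The Ubx-WT libraries did not overlap the other 6, and Ubx-WT replicate 2 was the lowest of the 9. As means these are 14.3% ± 0.334 with Ubx-N51A, 13.2% ± 0.707 with Ubx-WT and 14.2% ± 0.462 with GFP (SD, n = 3 each); a sum over members was given no test. In bulk RNA, fewer cells with much of a message and less of it per cell cannot be told apart. Without reads of the mitochondrial genome in the total, the shares were 14.96% ± 0.303 with Ubx-N51A, 13.7% ± 0.587 with Ubx-WT and 14.6% ± 0.357 with GFP.

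Both subunits moved together. The summed level of the large subunit genes was 1.70 times that of the small subunit genes in each group: 1.701 ± 0.0125 with Ubx-N51A, 1.701 ± 0.00774 with Ubx-WT and 1.705 ± 0.0048 with GFP, in CPM per kb (SD, n = 3 each). The sums cover 51 large and 36 small subunit genes, so the ratio depends on the number of genes and is not a ratio per gene. The 9 libraries lay between 1.69 and 1.71, and the groups overlapped. As summed CPM, not divided by length, the ratio was 1.707 to 1.717 with Ubx-N51A, 1.713 to 1.723 with Ubx-WT and 1.721 to 1.725 with GFP, so that Ubx-N51A lay below GFP on that scale by a small margin. Large subunit genes held 9.001% ± 0.200 of the reads with Ubx-N51A, 8.37% ± 0.438 with Ubx-WT and 8.97% ± 0.297 with GFP, and small subunit genes 5.26% ± 0.133, 4.87% ± 0.270 and 5.21% ± 0.165.

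Against GFP, ribosomal protein messages were slightly lower with Ubx-WT across nearly the whole family. Of the 81 tested members 14 were called lower and 0 higher, where 7.83% of all tested genes were called lower and 8.72% higher; at an unadjusted p under 0.05, edgeR had 58 members lower and 0 higher, against 15.3% of all tested genes lower and 15.3% higher, and DESeq2 also called 0 higher. The fitted log2 fold change was negative for 79 of 81 members, with a median of -0.16 and a middle range from -0.18 to -0.13, where the median of all tested genes was 0.00. In 48 members every Ubx-WT library lay below every GFP library, which held for 17.8% of all tested genes. Large subunit genes had 10 of 47 called lower with a median of -0.17, and small subunit genes 4 of 34 with a median of -0.15. The 9 tested haemocyte markers had a median of -0.12 in this comparison, with Col4a1 and ush called lower, and -0.07 with Ubx-N51A against GFP, with Col4a1 called lower; their part in the members' values was not tested.

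The largest fall was not in a structural ribosomal protein. RpLP0-like (FBgn0033485, chr2R:10098518-10099590, minus strand) resembles the stalk protein RpLP0, and its relative in yeast and human cells, Mrt4 or MRTO4, holds the stalk site of the immature large subunit during assembly. It had 116, 115 and 119 CPM in the Ubx-WT libraries, against 149, 148 and 141 CPM in the GFP libraries, with no overlap between the groups. Its log2 ratio, the fitted log2 fold change, was -0.32 (SE 0.05, edgeR adjusted p = 0.000904). RpL24-like (FBgn0037899, chr3R:11430740-11431582, minus strand) is likewise related to an assembly factor, Rlp24 of yeast, which occupies the place that RpL24 takes later. It had 215, 195 and 214 CPM with Ubx-WT and 254, 239 and 242 CPM with GFP, all Ubx-WT libraries below all GFP libraries, for a log2 ratio of -0.24 (SE 0.05, edgeR adjusted p = 0.00419).

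Among the called structural members RpS9 had the largest fall with Ubx-WT. RpS9 (FBgn0010408, chr3L:9509793-9511531, minus strand) binds the small subunit RNA early in assembly, near the mRNA entry. It had 416, 382 and 439 CPM in the Ubx-WT libraries and 515, 499.9 and 477 CPM in the GFP libraries, again without overlap. Its log2 ratio was -0.27 (SE 0.06, edgeR adjusted p = 0.00923). An annotated antisense transcript, asRNA:CR45874, covers 50.3% of its exon length and had 32 reads with Ubx-N51A, 31 with Ubx-WT and 28 with GFP; the sources used here do not say whether counting used the strand, so reads of the 2 genes in the overlap cannot be told apart.

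Further large subunit genes were called lower with Ubx-WT. RpL36A, a protein of the site where spent transfer RNA leaves, had 762, 664 and 811 CPM with Ubx-WT and 938, 889.9 and 828 CPM with GFP, a log2 ratio of -0.25 (SE 0.08, edgeR adjusted p = 0.0389). RpLP0, the base of the stalk that recruits translation factors, had 1928, 1618 and 1834 CPM with Ubx-WT and 2179, 2038 and 2022 CPM with GFP, a log2 ratio of -0.21 (SE 0.06, edgeR adjusted p = 0.0358). RpL12, which sits beside the stalk base, had 1582, 1488 and 1617 CPM with Ubx-WT and 1934, 1752 and 1702 CPM with GFP, a log2 ratio of -0.20 (SE 0.06, edgeR adjusted p = 0.032). In these 3 genes the groups did not overlap, and Ubx-WT replicate 2 was the lowest library and GFP replicate 1 the highest or second only to a Ubx-N51A library. RpL5, RpL6, RpL9, RpL30, RpL37A, RpS20, RpS21 and RpS24 made up the other calls, with log2 fold changes between -0.20 and -0.15.

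Most of these calls depended on single libraries. Without each of the 9 libraries in turn the number of members called lower was 3 to 28, and RpLP0-like, RpL24-like and RpS9 were the 3 of 14 called in every such fit. Of these only RpS9 is a structural ribosomal protein. The count was 3 when Ubx-WT replicate 2, GFP replicate 1 or GFP replicate 2 was left out, 6 without Ubx-WT replicate 3, 6 without Ubx-N51A replicate 2 and 28 without Ubx-WT replicate 1. Of all tested genes, 4.41% to 5.15% were called lower in the fits with 3 members, 4.54% and 6.61% in those with 6 and 8.63% in the fit with 28, so a count of 3 of 81 is not above the background. With both GFP replicate 1 and Ubx-WT replicate 2 left out, a choice made after seeing the data, RpLP0-like alone stayed called at a log2 fold change of -0.29 (edgeR adjusted p = 0.0171), where 3.44% of all tested genes were called lower, and the median over members was -0.08.

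The standing of these libraries was shared by the family. Among the 77 members of at least 100 CPM, Ubx-WT replicate 2 was the lowest of the 9 libraries in 66 and Ubx-WT replicate 1 in the other 11. GFP replicate 1 was the highest in 42, Ubx-N51A replicate 1 in 17 and Ubx-N51A replicate 2 in 16. The 11 members lowest in Ubx-WT replicate 1 were RpL5, RpL10, RpL15, RpL21, RpL38, RpL39, RpL41, RpS3A, RpS27, RpS28b and RpS29. The median position relative to the mean of the 9 libraries was 0.05, 0.07 and 0.03 (log2 CPM) in the Ubx-N51A libraries, -0.06, -0.22 and -0.06 in the Ubx-WT libraries and 0.11, 0.04 and 0.01 in the GFP libraries. Within groups the 77 members had a median coefficient of variation of 5.15%, against 3.44% for the 2248 tested genes of at least 100 CPM, each gene taken as its mean over the groups.

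**Figure D2:**
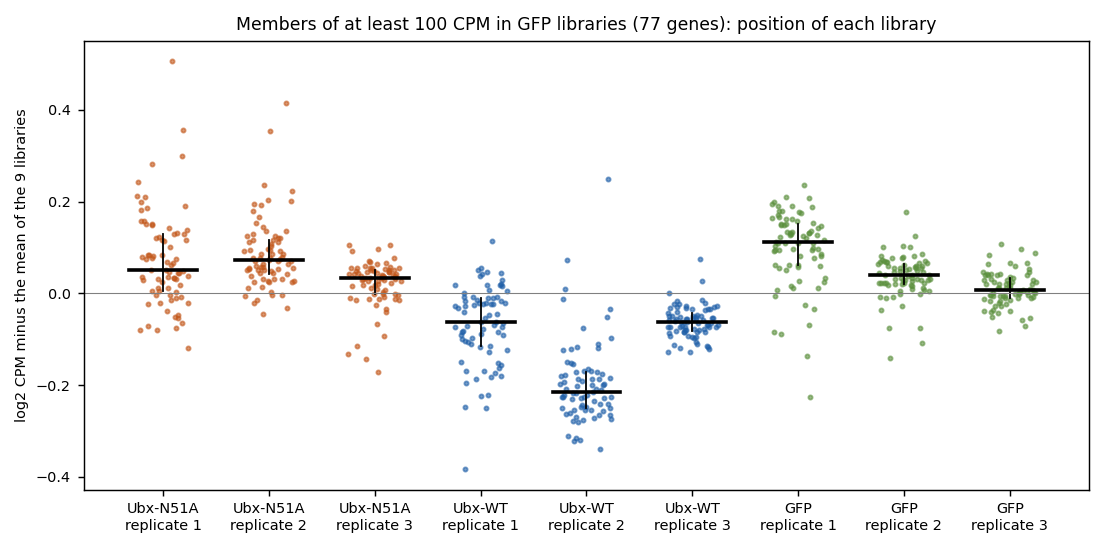
Position of 77 members in each of the 9 libraries, as log2 CPM minus the mean of the 9 libraries; each point is a gene, thick bars are medians and thin bars the range from the lower to the upper quartile. Ubx-WT replicate 2 has the lowest median at -0.22 and GFP replicate 1 the highest at 0.11.

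With Ubx-N51A the family stood above its level with Ubx-WT. Of the 81 tested members 14 were called higher and 0 lower against Ubx-WT, where 1.23% of all tested genes were called higher and 3.91% lower; at an unadjusted p under 0.05, edgeR had 54 members higher and 0 lower, against 8.19% of all tested genes higher and 8.82% lower, and DESeq2 also called 0 lower. The log2 fold change was positive for 79 of 81, with a median of 0.16, where that of all tested genes was 0.01, and in 51 members every Ubx-N51A library lay above every Ubx-WT library, which held for 10.9% of all tested genes. With a correction for the trend on exon length described below, the median was 0.05 and 3 members were called higher. Each subunit contributed 7 calls, of 47 large and 34 small. This comparison shares the Ubx-WT libraries with the one against GFP, so the mirrored medians are not separate evidence. Ubx itself had 1721, 2053 and 2274 CPM in the Ubx-N51A libraries and 1708, 1384 and 1497 CPM in the Ubx-WT libraries, a log2 ratio of 0.40 (SE 0.18, edgeR adjusted p = 0.287), and the part of this difference in the members' levels was not tested.

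RpLP2 (FBgn0003274, chr2R:16586129-16586732, plus strand) had the largest difference. It encodes an acidic protein of the flexible stalk, where it pairs with RpLP1 on RpLP0. It had 2614, 2721 and 2197 CPM in the Ubx-N51A libraries and 1748, 1614 and 1867 CPM in the Ubx-WT libraries, against 2033, 1851 and 1984 CPM in the GFP libraries. All Ubx-N51A libraries were above all others, while the Ubx-WT and GFP libraries overlapped. The log2 ratio was 0.53 against Ubx-WT (SE 0.08, edgeR adjusted p = 0.00126) and 0.36 against GFP (SE 0.08, edgeR adjusted p = 0.0153).

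RpL36 (FBgn0002579, chrX:628338-629483, minus strand), a large subunit protein, had 1233, 1332 and 1083 CPM with Ubx-N51A, 930.3, 837 and 963 CPM with Ubx-WT and 1054, 988 and 1038 CPM with GFP. The 3 groups did not overlap. Its log2 ratio was 0.42 against Ubx-WT (SE 0.07, edgeR adjusted p = 0.00381), and 0.24 against GFP (SE 0.07, edgeR adjusted p = 0.0597, not called). RpS9 had 540.2, 561 and 487 CPM with Ubx-N51A, against the Ubx-WT values given above, all Ubx-N51A libraries being higher, for a log2 ratio of 0.36 (SE 0.06, edgeR adjusted p = 0.00328).

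Among the other small subunit genes, RpS28b (FBgn0030136), the expressed copy of RpS28, had 2845, 2507 and 2374 CPM with Ubx-N51A and 2048, 2081 and 2258 CPM with Ubx-WT, a log2 ratio of 0.27 (SE 0.07, edgeR adjusted p = 0.0479). RpS16, whose tail reaches toward the transfer RNA in the decoding site, had 2029.8, 2051 and 1919.7 CPM with Ubx-N51A and 1706, 1562 and 1755 CPM with Ubx-WT, a log2 ratio of 0.26 (SE 0.05, edgeR adjusted p = 0.0139). RpS15, also near the decoding site, had 1665, 1658 and 1526 CPM with Ubx-N51A and 1381, 1279 and 1418 CPM with Ubx-WT, a log2 ratio of 0.25 (SE 0.05, edgeR adjusted p = 0.017). In all 3 genes the Ubx-N51A libraries lay above the Ubx-WT libraries. The other calls were RpL10Ab, RpL24-like, RpL29, RpL30, RpL37A, RpS14b, RpS15Aa and RpS21, at log2 fold changes from 0.16 to 0.25, and of the 14 only RpL29 had overlapping groups.

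RpS21, a small subunit protein, was called in both comparisons that involve Ubx-WT, as were RpS9, RpL24-like, RpL30 and RpL37A. RpS21 had 609.5, 582 and 530.5 CPM with Ubx-N51A, 482, 478 and 498 CPM with Ubx-WT and 546, 559 and 551 CPM with GFP, and the Ubx-WT libraries lay below all others. Its log2 ratio was 0.24 for Ubx-N51A against Ubx-WT (SE 0.05, edgeR adjusted p = 0.0121) and -0.18 for Ubx-WT against GFP (SE 0.05, edgeR adjusted p = 0.0234). Without each library in turn, the first call was kept in 8 of 9 fits and the second in 4 of 9.

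Without each library in turn 5 to 12 members were called higher, and RpLP2, RpL36, RpS9 and RpL24-like were the 4 of 14 called every time. The count was 5 without Ubx-N51A replicate 2, 7 without Ubx-N51A replicate 1, 6 without Ubx-WT replicate 2, 9 without Ubx-WT replicate 3, 8 with GFP replicate 2 left out and 9 with GFP replicate 3 left out. Over the 9 fits 0.511% to 1.34% of all tested genes were called higher. Without the pair of GFP replicate 1 and Ubx-WT replicate 2 it was 5, those 4 genes and RpS16, where 0.609% of all tested genes were called higher.

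**Figure D3:**
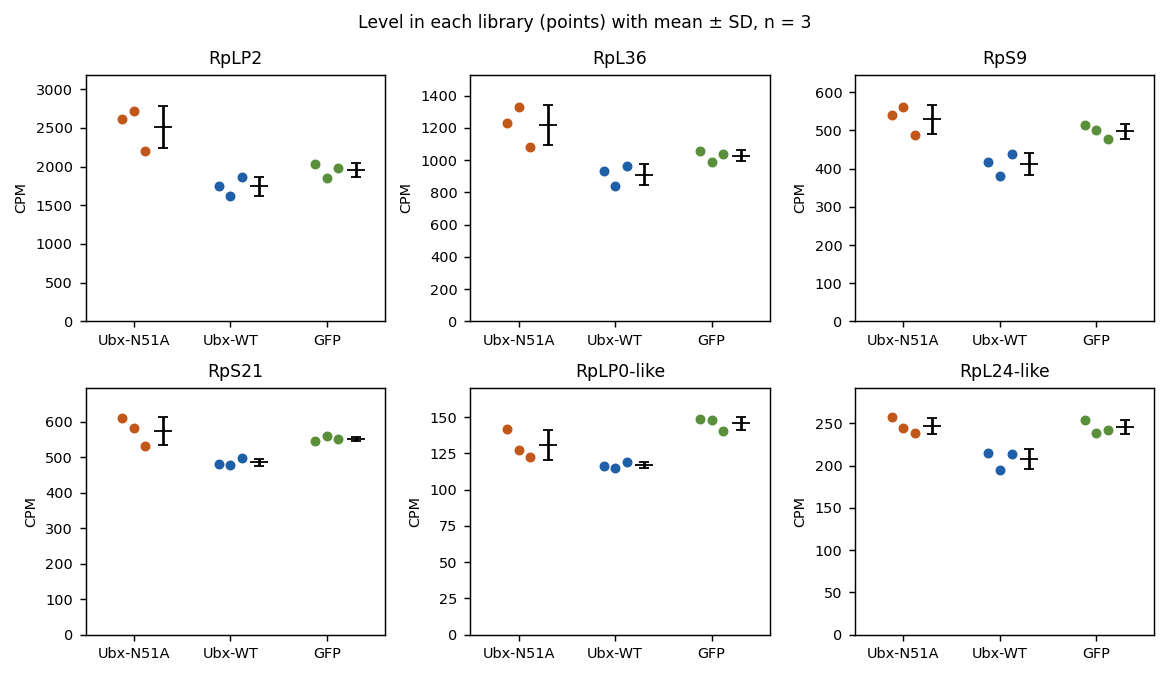
Level in CPM of 6 members in each of the 9 libraries, from 0, with mean ± SD beside the points (n = 3 each). In RpLP2 the Ubx-N51A libraries (2197 to 2721 CPM) lie above all others, while in RpLP0-like the Ubx-WT libraries (115 to 119 CPM) lie below the GFP libraries (141 to 149 CPM).

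Against GFP, most members were near the control level with Ubx-N51A. RpLP2 was the 1 member called higher and 0 were called lower, where 3.38% of all tested genes were called higher and 4.71% lower; at an unadjusted p under 0.05, edgeR had 6 members higher and 2 lower, against 11.4% of all tested genes higher and 12% lower, shares that the members do not exceed. The log2 fold change was positive for 43 and negative for 38 members, with a median of 0.01, as for all tested genes. The call of RpLP2 was lost when Ubx-N51A replicate 1, Ubx-N51A replicate 2 or GFP replicate 2 was left out, with an edgeR adjusted p of up to 0.0898. Ubx-N51A libraries lay wholly above GFP in 4 members, RpLP2, RpL36, RpS14b and RpS16, and wholly below in RpS7, where 14.4% of all tested genes did so above and 15% below.

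RpLP0-like had a negative change here that was not called by edgeR. It had 142, 128 and 122 CPM with Ubx-N51A, of which replicate 1 reached the GFP range, and a log2 fold change against GFP of -0.16 (SE 0.05, edgeR adjusted p = 0.0731, not called). DESeq2, run on the same counts, did call it (adjusted p = 0.0417), and called RpL36 higher (adjusted p = 0.0137). RpL24-like had 258, 244 and 239 CPM with Ubx-N51A, close to GFP, at 0.01 (SE 0.05, edgeR adjusted p = 0.936). Whether the change of these genes against GFP differs between Ubx-N51A and Ubx-WT is the comparison of the 2 Ubx groups: it was 0.25 for RpL24-like (edgeR adjusted p = 0.00755) and 0.16 for RpLP0-like (edgeR adjusted p = 0.107, not called).

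**Figure D4:**
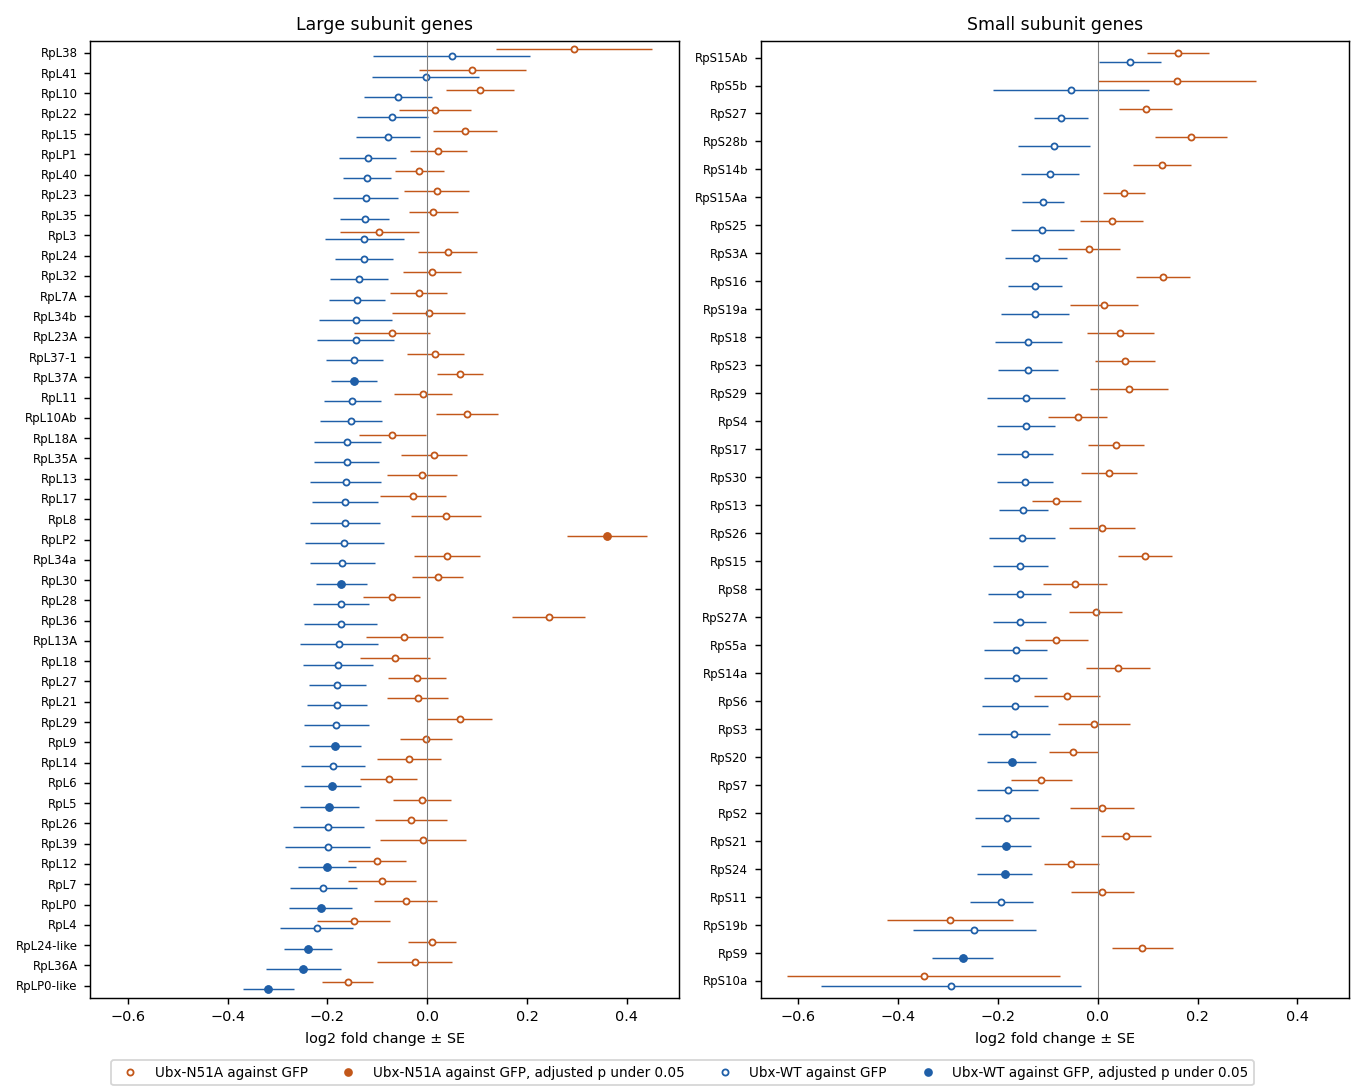
log2 fold change ± SE of each tested member against GFP, for Ubx-N51A and for Ubx-WT, by subunit; filled points have an edgeR adjusted p under 0.05. With Ubx-WT 79 of 81 genes lie left of 0 and 14 are filled, while with Ubx-N51A 38 lie left of 0 and RpLP2 is the filled point; both comparisons use the same GFP libraries.

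By place in the ribosome, the 4 stalk genes were RpLP0, RpLP1, RpLP2 and RpL12, of which RpLP0 and RpL12 fell with Ubx-WT. With Ubx-N51A against Ubx-WT their log2 fold changes ran from 0.10 for RpL12 to 0.53 for RpLP2, and RpLP2 was the only one called. RpLP1, the partner of RpLP2, had 2090.0, 1901 and 1954 CPM with Ubx-N51A, 1853, 1667 and 1869 CPM with Ubx-WT and 1991, 1929 and 1935 CPM with GFP. Its log2 ratio was 0.14 between the Ubx groups (SE 0.06, edgeR adjusted p = 0.216) and -0.12 with Ubx-WT against GFP (SE 0.06, edgeR adjusted p = 0.179). Whether RpLP2 differed from RpLP1 in its change was not tested.

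The particle that brings 5S ribosomal RNA to the ribosome holds RpL5 and RpL11. RpL5 (FBgn0064225) had 5896, 5987 and 5606 CPM with Ubx-N51A, 4939.5, 5027 and 5405 CPM with Ubx-WT and 5969.8, 5709 and 5931 CPM with GFP, and its fall with Ubx-WT was called (-0.20, SE 0.06, edgeR adjusted p = 0.0359). RpL11 had 3149 ± 42.4 CPM with Ubx-N51A, 2854 ± 182 CPM with Ubx-WT and 3168 ± 109.9 CPM with GFP (SD, n = 3 each), and its log2 fold change with Ubx-WT of -0.15 was not called (SE 0.06, edgeR adjusted p = 0.0941). In both genes the Ubx-WT libraries lay below the GFP libraries.

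RpL40, RpS27A and RpS30 are made as fusions behind ubiquitin or a ubiquitin-like protein. None of the 3 was called in any comparison, with log2 fold changes of -0.16 to -0.12 for Ubx-WT against GFP. RpS27A had 1512 ± 56.6 CPM with Ubx-N51A, 1359.9 ± 59.7 CPM with Ubx-WT and 1516 ± 70.9 CPM with GFP (SD, n = 3 each). RpS2, RpS3, RpS23 and RpS26 line the mRNA channel and the decoding site, and none of the 4 was called either, between -0.18 and -0.14 with Ubx-WT against GFP. RpS6, the target of S6 kinase, had 1450.3 ± 58.7 CPM with Ubx-N51A, 1349 ± 114 CPM with Ubx-WT and 1513 ± 84.5 CPM with GFP, a log2 ratio of -0.17 with Ubx-WT against GFP (SE 0.07, edgeR adjusted p = 0.105). Of the proteins around the peptide exit, RpL17, RpL23A, RpL35 and RpL39 were measured and none was called. Their medians, -0.15 with Ubx-WT and -0.02 with Ubx-N51A against GFP, were close to those of the family.

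Among the 77 members of at least 100 CPM, the 4 least even among replicates have short coding sequences. RpL38 had a coefficient of variation within groups of 18.8%, RpL41 of 12.1%, RpL39 of 9.43% and RpS29 of 8.26%, with coding sequences of 210, 75, 153 and 168 bases. Here the group values were combined as a root mean square, while the median given earlier used their mean. RpL3 came next at 8.12%, with a coding sequence of 1248 bases, so the pattern did not extend beyond these 4. RpL38 had 879, 684 and 564 CPM with Ubx-N51A, 474, 736 and 584 CPM with Ubx-WT and 528, 573 and 632 CPM with GFP. Its groups overlapped in all comparisons, and it was 1 of the 2 members with a positive log2 fold change for Ubx-WT against GFP (0.05, SE 0.16). At the other end of these 77 RpS15Aa varied by 2.21%, followed by RpL37A at 3.2%, with a coding sequence of 276 bases.

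Where a protein has several genes, 1 copy usually carried nearly all of the reads. The symbols gave 12 sets of related genes. In 5 of them, RpL10A, RpL22, RpL37, RpL7 and RpS28, the minor copies were the untested members: RpL10Aa and RpS28-like had 0 reads in all 9 libraries, RpL22-like had 1, 1 and 0 reads in the Ubx-N51A, Ubx-WT and GFP groups, RpL37-2 had 1, 1 and 4, RpL7-like 0, 2 and 2, and RpS28a 3, 8 and 1. RpL7-like shares 98.8% of its exon length on the same strand with CG34164, which had 0 reads in each group. How reads in that overlap were counted is not stated, so the count of RpL7-like may not give its level. RpL22-like is known from the fly germline. For RpL10Aa a count of 0 allows up to 0.00107%, 0.00101% and 0.00109% of the reads of both copies with Ubx-N51A, Ubx-WT and GFP, taking 3 reads as the limit and counting error only.

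The germline-type copies RpS5b and RpS19b were present in traces. RpS5b, needed in the female germline, made up 0.157% ± 0.0307 of the summed CPM per kb of RpS5a and RpS5b with Ubx-N51A, 0.145% ± 0.0112 with Ubx-WT and 0.135% ± 0.0175 with GFP (SD, n = 3 each). RpS19b made up 0.947% ± 0.0926 with Ubx-N51A, 1.07% ± 0.00794 with Ubx-WT and 1.17% ± 0.155 with GFP. RpS15Ab was larger, at 7.68% ± 0.396, 8% ± 0.223 and 7.16% ± 0.402 of its pair in the same groups, and its log2 ratio was 0.16 with Ubx-N51A against GFP (SE 0.06, edgeR adjusted p = 0.137). None of these 3 genes was called in any comparison.

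In the RpS14 and RpL34 pairs both genes were well expressed. RpS14a and RpS14b stand next to each other on the X chromosome (chrX:7933742-7934677, plus strand, and chrX:7934898-7935792, plus strand) and encode the same small subunit protein. RpS14b made up 40.7% ± 0.707 of the pair's CPM per kb with Ubx-N51A, 40.3% ± 0.981 with Ubx-WT and 39.2% ± 0.659 with GFP. RpS14b was called higher with Ubx-N51A against Ubx-WT (0.22, SE 0.06, edgeR adjusted p = 0.0428), and RpS14a had 0.21 there (SE 0.06, edgeR adjusted p = 0.0998, not called). RpL34a made up 23.8% ± 1, 23% ± 0.719 and 23.3% ± 0.364 of its pair with RpL34b with Ubx-N51A, Ubx-WT and GFP, and neither gene was called in any comparison. Reads without a unique alignment are listed apart from the genes (3.26% to 5.05%), and the settings of the counting are not stated. Shares within near-identical pairs are therefore uncertain.

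The assembly homologues were minor beside their structural relatives. RpL24-like was 17.8% ± 0.218 of the sum with RpL24 with Ubx-N51A, 17% ± 0.352 with Ubx-WT and 18.1% ± 0.259 with GFP, lowest with Ubx-WT without overlap. RpLP0-like was 8.32% ± 0.717, 8.4% ± 0.648 and 8.94% ± 0.247 of the sum with RpLP0 in those groups, and these overlapped.

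**Figure D5:**
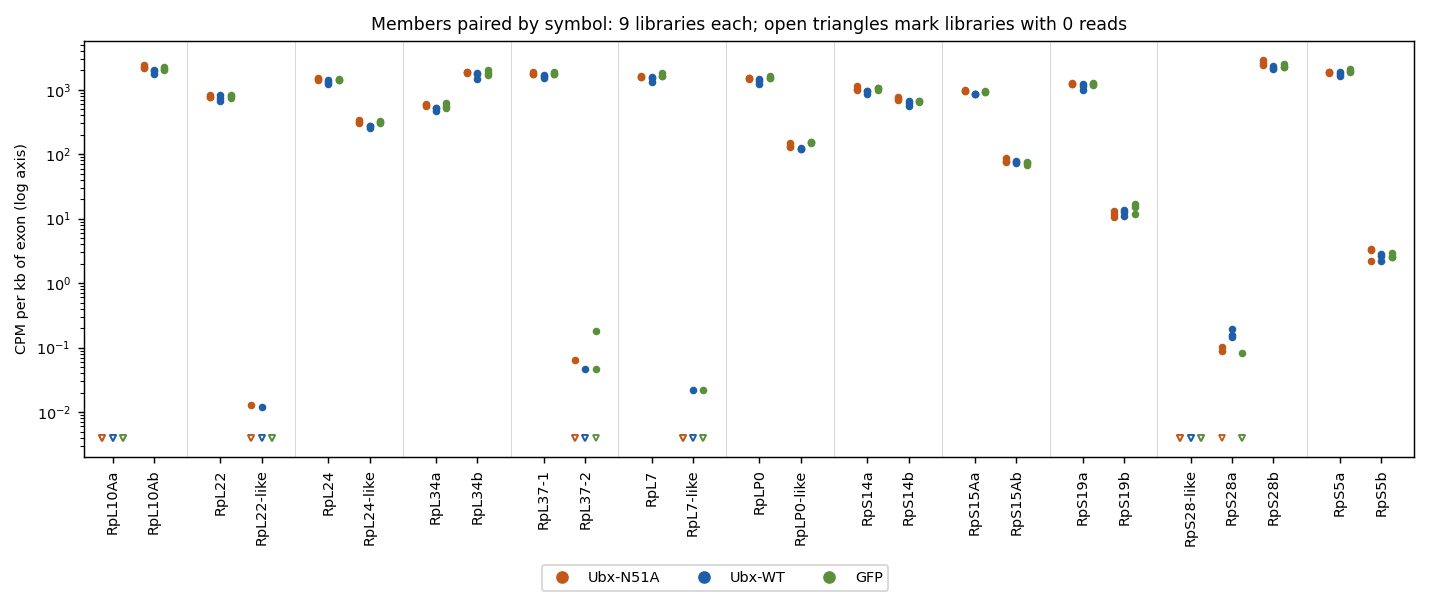
Level of each member of the 12 symbol sets in each of the 9 libraries, in CPM per kb of exon on a log axis; open triangles at the bottom mark libraries with 0 reads. The minor copies RpL10Aa, RpL22-like, RpL37-2, RpL7-like, RpS28-like and RpS28a stay below 1 CPM per kb, while RpS14b is 40.7% of its pair with Ubx-N51A.

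The median member was shorter than the median tested protein-coding gene, and small shifts followed length across all genes. The 81 tested members had a median exon length of 916 bases and a median coding length of 468 bases, against 2102 and 1398 bases for the 8437 tested protein-coding genes, and a median 5′ untranslated length of 76 against 156 bases. Among genes over 5 CPM, the tenth with the shortest exons had, with members left out, a median log2 fold change of -0.05 for Ubx-WT against GFP, 0.08 for Ubx-N51A against GFP and 0.12 for Ubx-N51A against Ubx-WT. The tenth with the longest exons had 0.03, -0.02 and -0.04 in the same comparisons. With that trend on exon length taken out, 7 members were called lower for Ubx-WT against GFP, where 7.54% of all tested genes were, a share near that of the members. For Ubx-N51A against Ubx-WT 3 were called higher (RpLP2, RpL36 and RpS9), where 0.51% of all tested genes were. The median for Ubx-WT against GFP was then -0.11, with 78 of 81 negative, that between the Ubx groups 0.05, with 69 of 81 positive, and that of Ubx-N51A against GFP -0.05, with 63 of 81 negative. What part length has in the members' changes beyond this correction was not tested.

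Length, position and overlap with other genes were also compared within the family. Over the 77 members of at least 100 CPM, which share the same libraries, Spearman's rho between exon length and log2 fold change was -0.02 for Ubx-WT against GFP, -0.35 for Ubx-N51A against GFP and -0.34 for Ubx-N51A against Ubx-WT. Members with a row lay on every major arm, 13 on X, 18 on 2L, 19 on 2R, 13 on 3L, 23 on 3R and 1 on chromosome 4. Median log2 fold changes per arm of at least 13 tested members ran from -0.17 to -0.14 for Ubx-WT against GFP and from 0.14 to 0.18 for Ubx-N51A against Ubx-WT. Introns or exons of 28 members hold 74 small RNA genes, such as snoRNAs. The 26 of these hosts with at least 100 CPM had a median of -0.16 for Ubx-WT against GFP, as did the other 51 members. Hosts had -0.03 and the others 0.01 for Ubx-N51A against GFP, and 0.13 and 0.16 for Ubx-N51A against Ubx-WT; the differences were not tested. In 11 members over 15% of the exon length is shared with another annotated gene, among them RpS9 above, RpL7-like with 98.8%, RpL22 with 34.3% and RpL23A with 31.9%.

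Genes around the ribosome were looked at through lists of translation and growth genes. The ribosomal proteins that the symbol rule leaves out, sta (small subunit protein SA) and Rack1, had log2 fold changes for Ubx-WT against GFP of -0.19 (SE 0.07, edgeR adjusted p = 0.1) and -0.15 (SE 0.07, edgeR adjusted p = 0.153), and neither was called. Of 27 initiation factors 15 were called lower and 0 higher with Ubx-WT against GFP, with a median of -0.15, where 7.83% of all tested genes were called lower and their median was 0.00. With Ubx-N51A against GFP 3 were called lower, eIF5B, eIF6 and eIF2alpha, with a median of -0.10, where 4.71% of all tested genes were called lower, and between the Ubx groups 0 were called in either direction.

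eIF6, which keeps the large subunit from joining too early, had 59.9, 61.8 and 61.4 CPM with Ubx-N51A and 66.5, 55.9 and 56.7 CPM with Ubx-WT, against 79.7, 74 and 67.4 CPM with GFP. Both Ubx groups lay below GFP, at log2 fold changes of -0.27 (SE 0.07, edgeR adjusted p = 0.0328) with Ubx-N51A and -0.30 (SE 0.07, edgeR adjusted p = 0.00947) with Ubx-WT. eIF2alpha, the regulated subunit of the factor that brings the initiator transfer RNA, had 324, 329.6 and 345 CPM with Ubx-N51A, 348, 301 and 325 CPM with Ubx-WT and 409.5, 383 and 367 CPM with GFP, and was called lower in both Ubx groups against GFP. The GFP libraries are common to both comparisons.

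Of 9 elongation and termination genes 4 were called lower with Ubx-WT against GFP, eEF1delta, eRF1, Tctp and pix, and eRF1 and pix were called lower with Ubx-N51A, where 7.83% and 4.71% of all tested genes were. eRF1, which releases finished chains, had 389.8, 373 and 383 CPM with Ubx-N51A and 384, 374 and 378 CPM with Ubx-WT, against 432, 437 and 432 CPM with GFP, and the GFP libraries were above all others. Of 12 TOR and growth regulators, 1 was called higher with Ubx-WT against GFP, where 8.72% of all tested genes were, a share near that of the list. It was Mnt, a repressor that opposes Myc (0.15, SE 0.04, edgeR adjusted p = 0.0116), and no other regulator was called in any comparison. None of 7 factors of ribosomal protein promoters, among them Trf2, M1BP and Dref, was called in any comparison. Of all tested genes 8.72% were called higher and 7.83% lower with Ubx-WT against GFP, and 3.38% and 4.71% with Ubx-N51A against GFP. Between the Ubx groups these shares were 1.23% and 3.91%, so 0 calls among 7 genes are not set apart from the background.

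Among 7 genes of the response to lost ribosomal proteins, Xrp1, the transcription factor of that response, had 605, 631 and 654 CPM with Ubx-N51A and 672, 667 and 694 CPM with Ubx-WT, against 760.0, 689.9 and 703 CPM with GFP. It was called lower with Ubx-N51A against GFP (-0.19, SE 0.05, edgeR adjusted p = 0.0325). GstE6, a glutathione transferase, was called lower with Ubx-WT against GFP (-0.23, SE 0.04, edgeR adjusted p = 0.00194) and higher with Ubx-N51A against Ubx-WT (0.16, SE 0.04, edgeR adjusted p = 0.048). Ilp8, a growth-delay hormone, was under 1 CPM in all 9 libraries and called lower in both Ubx groups against GFP. With Ubx-WT against GFP 2 of the 7 genes were called lower, where 7.83% of all tested genes were. With Ubx-N51A against GFP 2 were called lower, against 4.71% of all tested genes. Between the Ubx groups 1 was called higher, against 1.23% of all tested genes.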

How the data were processed

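The deposited files hold, per the labels, read counts per gene for 9 poly(A) libraries (directional, single-end). The submitters' processing notes name FastQC, Trimmomatic 0.36, STAR, HTSeq, DESeq and DESeq2, and dm6 and BDGP6 as builds. Their settings, any use of strand and the gene models counted are not stated in the sources used here. Counts were used as deposited. The 5 closing summary rows of each file, reads outside genes (1.50% to 2.27%), ambiguous (3.11% to 3.32%) or not unique (3.26% to 5.05%) among them, stayed out of totals and tests. Of 17559 gene identifiers, 306 had no symbol in the Ensembl annotation of BDGP6.54, which also gave positions and merged exon lengths.

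Counts were tested with edgeR 4.0.16 in R 4.3.3: genes kept by filterByExpr, TMM factors (0.9706 to 1.0261), a quasi-likelihood test over 3 groups with 6 residual degrees of freedom, and Benjamini-Hochberg adjustment over all genes tested. The common biological coefficient of variation was 5.41%. On simulated counts for Ubx-WT against GFP (9015 genes), 94.1% of 1.25-fold rises and 88.2% of 1.25-fold falls were recovered, with 6.28% false calls among all calls. For Ubx-N51A against GFP (8940 genes) these were 88.2%, 76.5% and 6%, and for Ubx-N51A against Ubx-WT (8993 genes) 82.4%, 79.4% and 5.08%. Each simulation fitted only the 2 groups compared and drew counts independently, with no shift shared by the genes of a library. Its smallest change was 1.25-fold, so recovery of smaller changes was not tested. In the data the 3 comparisons share libraries. Alternatives were other scaling factors, DESeq2 1.42.0, no filter, an exon length correction, a replicate block, fits on 2 groups and leaving out libraries.

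Any member could be named; per-library values and statistics were given for related copies, for the 6 called members of largest change per comparison whose groups did not overlap, for the 3 highest and 3 lowest per kb, and for sets by place in the ribosome. Such values were also given for RpS21 and RpL38, which these rules do not cover. Members and gene lists were chosen with earlier results of these data known. Not matched in the lists and left out were eEF1alpha1, eEF3, eEF5, Tor, S6k, Larp, InR, Nnmt, vas and nos. No sequences were used here.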

Additional observations from a re-analysis of the deposited data

How the results depend on the processing

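Against the 14 members called lower for Ubx-WT against GFP, DESeq2 called 36, the test without a filter on low counts 42, and the exon length correction 7. Of all tested genes 9.08%, 6.01% and 7.54% were called lower in these fits, the last near the share of the members. For Ubx-N51A against Ubx-WT, where 14 were called higher, these settings gave 26, 24 and 3, and a fit on the 2 groups alone gave 8. There 1.75%, 1.3%, 0.51% and 0.682% of all tested genes were called higher. For Ubx-N51A against GFP, with 1 higher and 0 lower, DESeq2 and the unfiltered test each called 2 higher and 1 lower, and the exon length correction called 1 lower. In these fits 4.12%, 2.63% and 3.74% of all tested genes were called higher and 6.21%, 3.84% and 5.28% lower. The replicate block gave 7 lower for Ubx-WT against GFP and 8 higher for Ubx-N51A against Ubx-WT, and together with the exon length correction 3 and 2, with 0 higher and 1 lower for Ubx-N51A against GFP. With the block 6.97% of all tested genes were called lower in the first comparison and 0.978% higher in the second. With block and correction these shares were 6.35% and 0.358%, so the 3 members called lower are not above the background there. For Ubx-N51A against GFP 2.78% of all tested genes were then called higher and 3.96% lower. The replicate numbers of the titles, used here, did not pair the libraries (file names number the second GFP library differently from the second Ubx libraries): correlations of same-numbered libraries of different groups ran from -0.33 to 0.55, and not every library correlated best with its own number. The median between the Ubx groups was 0.0497 with the exon length correction and 0.0505 with block and correction. Without 1 library in turn, the counts were 3 to 28 lower for Ubx-WT against GFP, 0 to 2 higher and 0 to 1 lower for Ubx-N51A against GFP and 5 to 12 higher for Ubx-N51A against Ubx-WT, and the medians ran from -0.18 to -0.11, from -0.01 to 0.04 and from 0.11 to 0.18. Of all tested genes 4.41% to 8.63% were called lower in the first comparison and 0.511% to 1.34% higher in the last. For Ubx-N51A against GFP 1.59% to 3.8% were called higher and 2.25% to 5.09% lower. With GFP replicate 1 and Ubx-WT replicate 2 left out together, chosen after seeing the data, the counts were 1 lower for Ubx-WT against GFP and 5 higher for Ubx-N51A against Ubx-WT, with a median of -0.0761 for Ubx-WT against GFP. Of all tested genes 3.44% were then called lower in the first comparison and 0.609% higher in the second. The share of reads with Ubx-N51A was 14.96% of nuclear reads, and without 1 library the shares were 14.1% to 14.4% with Ubx-N51A, 13.0% to 13.6% with Ubx-WT and 13.9% to 14.3% with GFP. The large to small subunit ratio was 1.544 with Ubx-N51A, 1.553 with Ubx-WT and 1.553 with GFP per kb of coding length, also chosen after seeing the data, and 1.716 with Ubx-WT and 1.723 with GFP as summed CPM. RLE factors and TMM factors without the members kept every count within 1.5 times and every median within the spread. The causes of these shifts were not tested. No called value changed sign. Of 2573 values compared for named genes, 97 uncalled ones changed sign. Most changes were near 1.1-fold, so a call rested on small differences between 3 libraries a group.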
